A study of Mus musculus with 20 samples.

Results

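The interferon response genes examined here are the genes that cells switch on after an interferon binds its receptor, followed through stem and progenitor cells, erythroblasts and whole marrow of mice fed the androgen oxymetholone or placebo. A list of 53 gene symbols was looked up in the deposited count matrix, and 52 were found among its 20377 symbols. For each symbol the row with the largest total count was kept. The symbol Gbp7 was not matched, while the row carrying the symbol Gbp6 (chromosome 3, 142193306 to 142213047, mm9) is described as guanylate binding protein 7 and is assigned to Gbp7 by the RefSeq gene table. It is called the Gbp6 row here. The 52 genes comprised 33 type I genes, 11 GTPases of the GBP and IRG families and 8 others.

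Type I interferons act through a receptor whose kinases activate a complex that holds STAT2 and IRF9 and binds the interferon-stimulated response element, while interferon gamma acts at the gamma-activated site and through IRF1. Type I targets include antiviral effectors and sensors of foreign RNA and DNA, whereas the GBP and IRG GTPases are classical targets of interferon gamma. Interferons are known to act on marrow, where they can rouse quiescent stem cells, and the Sca-1 antigen used to sort those cells is itself interferon inducible.

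All mice were 129S4 males. The KSL cells (cKit+ Sca1+ Lin-, a fraction holding stem and progenitor cells) came from Fancd2-/- mice on oxymetholone, Fancd2-/- mice on placebo, wild-type mice on oxymetholone and wild-type mice on placebo, with 3 libraries per group and pooled cells of 5 mice per library. Fancd2 encodes a DNA repair protein whose loss causes Fanconi anemia in people. Ter119+ CD71high FSChigh erythroblasts (proerythroblasts and basophilic erythroblasts) came from wild-type mice only, on oxymetholone or placebo, with 3 libraries each and 1 mouse per library. Whole marrow was represented by 1 Fancd2-/- and 1 wild-type library, both from placebo-fed mice and both combined from 5 mice. The oxymetholone diet held 300 mg/kg, began at weaning at 3 to 4 weeks and lasted 3 months, and the mice were 4 months old. The study's design text pairs each oxymetholone KSL library with a placebo library of the same genotype and flow cytometer setting, giving 3 pairs per genotype.

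Counts per library over the kept rows were 10777291 to 121347124 in KSL cells, 17177255 to 20816422 in erythroblasts and 100192495 to 106889478 in whole marrow. Levels are given as CPM (read counts divided by library size in megareads) with TMM scaling inside each population. Fancd2 itself lay at 6.63 to 8.79 CPM in Fancd2-/- KSL libraries and at 16.6 to 23.45 CPM in wild-type KSL libraries. Summed over the 9 stem and progenitor markers, KSL libraries held 3164 to 5009 CPM and erythroblasts at most 1.68 CPM, and the 8 erythroid markers summed to 57310 to 66340 CPM in erythroblasts. Several libraries stood apart. Fancd2-/- placebo library 2 held 229 CPM of neutrophil markers and 265 CPM of erythroid markers, against at most 65.4 and 92.04 CPM in every other KSL library. Fancd2-/- placebo library 3 had the lowest stem and progenitor sum, and its deviation from the other libraries of its group fell with transcript length over the 51 members with a KSL mean of at least 1 CPM (Spearman's rho -0.70, a description over genes of 1 library). The same rho was 0.507 and 0.571 in Fancd2-/- placebo libraries 1 and 2, each scored against a mean that holds library 3. It was -0.394 to 0.375 in the other KSL libraries. Erythroblast placebo library 1 held the highest level of most members, as described with the erythroblasts.

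The promoters were searched for the motifs of both interferon pathways. An interferon-stimulated response element core, spelled GAAANNGAAA and searched on both strands with overlapping matches allowed, was present in 32 of the 52 members in the 300 bases from 250 before to 50 after the start, against 3.44% of 20300 promoters of the same length. By class it was present in 18 of 33 type I genes, 9 of 11 GTPases and 5 of 8 others. A gamma-activated site, spelled TTCNNNGAA, was present in 16 members, against 7.71% of all promoters, and in 6 of the 11 GTPases. Of the 50 matches to the first motif, 43 began upstream of the start, at a median of 74 bases before it. Promoters of some of the genes named below, all holding that core, are printed 5′ to 3′ on the gene's own strand. Each is the 120 bases before the start, with the core in capitals (its reverse complement where it lies on the other strand). Other genes named below, among them Oasl2, Slfn2, Gbp4, Cmpk2, Irf1 and Irf7, had no core in their 300 bases. All coordinates are mm9.
Rsad2 (chr12:27141318-27141437, minus strand): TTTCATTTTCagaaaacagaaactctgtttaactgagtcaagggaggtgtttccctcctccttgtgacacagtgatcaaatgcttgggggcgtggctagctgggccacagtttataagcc
Isg15 (chr4:155574928-155575047, minus strand): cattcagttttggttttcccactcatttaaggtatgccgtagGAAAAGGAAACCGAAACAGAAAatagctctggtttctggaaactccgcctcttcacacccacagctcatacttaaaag
Irgm2 (chr11:58028359-58028478, plus strand): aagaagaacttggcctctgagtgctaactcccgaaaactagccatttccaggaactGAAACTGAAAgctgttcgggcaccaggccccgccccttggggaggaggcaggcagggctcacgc
Igtp (chr11:58012938-58013057, plus strand): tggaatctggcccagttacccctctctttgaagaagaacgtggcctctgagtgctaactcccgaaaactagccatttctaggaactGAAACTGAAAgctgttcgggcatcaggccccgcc
Gbp2 (chr3:142283507-142283626, plus strand): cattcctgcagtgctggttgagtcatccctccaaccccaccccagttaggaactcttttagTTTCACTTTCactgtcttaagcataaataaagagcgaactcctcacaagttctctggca
Ifit1 (chr19:34715259-34715378, plus strand): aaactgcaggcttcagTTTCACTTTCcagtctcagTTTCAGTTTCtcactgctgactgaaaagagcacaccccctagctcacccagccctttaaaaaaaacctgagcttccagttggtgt
Oas1a (chr5:121357535-121357654, minus strand): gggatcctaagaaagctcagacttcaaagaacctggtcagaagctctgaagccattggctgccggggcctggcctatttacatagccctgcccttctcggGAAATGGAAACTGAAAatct
Tgtp2 (chr11:48877715-48877834, minus strand): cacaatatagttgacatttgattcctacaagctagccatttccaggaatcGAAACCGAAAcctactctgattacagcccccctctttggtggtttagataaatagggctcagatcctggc

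Isg15 carried 3 overlapping cores, Ifit1 and Oas1a carried 2 each, and the other printed promoters carried 1. The 300-base promoters of the neighbours Igtp and Irgm2 shared an unbroken run of 61 bases, the longest among the 1326 pairs of members, whose median longest run was 8 bases. The next was the run of 49 bases shared by Mx1 and Mx2, and 9 pairs shared a run of at least 20 bases. A match describes the letters of the window and is not a measured binding site.

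The members covered a wide range of levels in each population. Their mean reached 1 CPM for 51 members in KSL cells, 32 in erythroblasts and 51 in whole marrow, and 10 CPM for 41, 20 and 36. Compared per kilobase of the longest transcript, the highest member in KSL cells was Ifitm3, a membrane protein that restricts virus entry, at a mean of 792 CPM per kilobase, followed by the transcription factor gene Irf1 at 129 and the GTPase gene Ifi47 at 118 CPM per kilobase. In erythroblasts the first 4 members were Rsad2 at 112, Irgm2 at 110, Igtp at 107 and Isg15 at 84.3 CPM per kilobase, and Rsad2, Irgm2 and Igtp lay closer to each other than their spread between libraries. In whole marrow Ifitm3 led again at 503 CPM per kilobase, followed by Slfn2 at 170, Ifi27l2a at 120 and Rsad2 at 118. The order of the 52 levels per kilobase in erythroblasts had a Spearman's rho of 0.34 with that in KSL cells and of 0.66 with that in whole marrow, as a description over genes that share gene length.

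The first question was what oxymetholone did to these genes in KSL cells. No member passed the test in either genotype, yet most fitted changes were below 0. In Fancd2-/- KSL cells 44 of 52 members had a log2 fold change below 0 with a median of -0.19, against a median of -0.01 over all 13259 genes tested. In wild-type KSL cells 49 of 52 were below 0 with a median of -0.20. Without wild-type pair 2, 31 of 52 were below 0 with a median of -0.07. With edgeR's quasi-likelihood test and Benjamini-Hochberg adjustment, 0 of 52 members passed an adjusted p of 0.05 in Fancd2-/- cells (0% of all genes did), 0 in wild-type cells (0% of all genes) and 0 for the mean of both genotypes (0% of all genes).

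At an unadjusted p under 0.05, 8 members in Fancd2-/- cells were past the threshold against 6.81% of all genes, with 7 of the 8 lower. In wild-type cells 12 were, all lower, against 2.68% of all genes. Without wild-type pair 2, 4 members in wild-type cells had an unadjusted p under 0.05. The share of all genes in that fit is not given. For the mean of both genotypes 18 were past the threshold, all lower, against 5.43%. That mean also holds wild-type pair 2, and its count without that pair is not given. Members can vary together by library, so these counts are not of independent genes. DESeq2 called 0, 2 and 3 members in these 3 comparisons, against 0%, 0.0302% and 0.098% of all genes, and limma voom with sample quality weights called 0, 7 and 0. The 7 members that voom called in wild-type cells were Cxcl10, Gbp4, Slfn2, Gbp10, Gbp2, Ifit1 and Tgtp2, all lower, while voom called 0.754% of all genes there. None of the 7 was called by edgeR.

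The 6 pairs differed in size. Over the 51 members with a KSL mean of at least 1 CPM, the median log2 ratio of oxymetholone over placebo was -0.10, -0.17 and -0.20 in Fancd2-/- pairs 1 to 3 and -0.05, -0.52 and -0.07 in wild-type pairs 1 to 3. Wild-type pair 2 stood apart, with 51 of 51 members lower on oxymetholone, against 45.3% of 11971 genes of that level. In the other pairs 30 to 39 of the 51 were lower. Lower in every Fancd2-/- pair were 19 members (10.3% of genes), lower in every wild-type pair were 20 (13.4% of genes), and lower in all 6 pairs were 9 (1.95% of genes), namely Ifit3, Oasl2, Irf9, Cxcl10, Gbp2, Igtp, Irgm1, Tgtp2 and Ifi202b. Ifi202b, counted in the 19, the 20 and the 9, reached a KSL mean of 1.03 CPM only through 5.91 CPM in Fancd2-/- placebo library 3. Its KSL median was 0.589 CPM, so its place among the 51 came from a placebo library and is no support. None of the 51 was higher in every pair of either genotype, against 10.1% of genes in Fancd2-/- pairs and 16.9% in wild-type pairs. Gbp10, below 1 CPM on average and so not among the 51, was higher in all 3 Fancd2-/- pairs (0.20, 0.40 and 0.40).

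**Figure D1:**
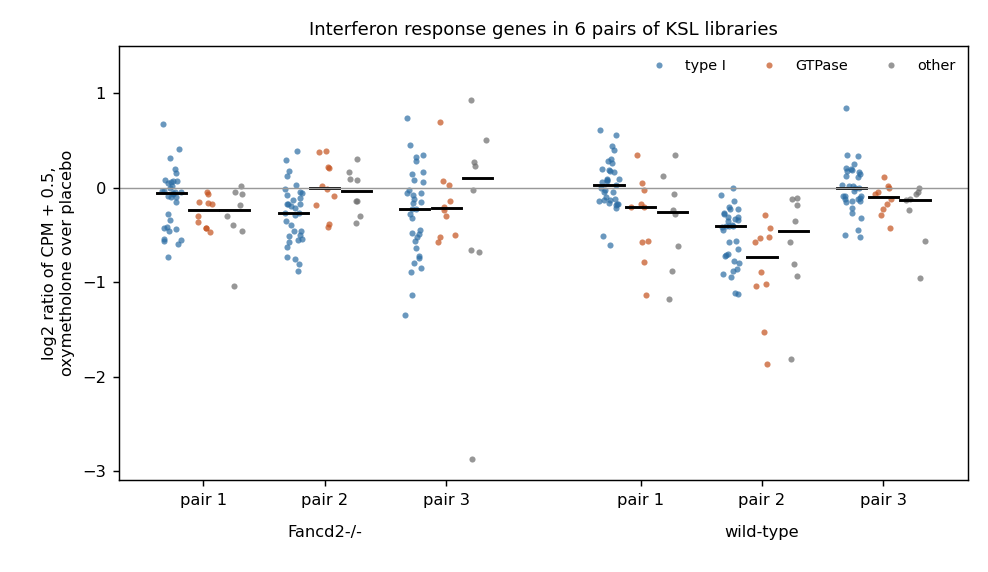
Log2 ratio of CPM + 0.5, oxymetholone over placebo (vertical axis), for 51 interferon response genes in each of the 6 KSL pairs, coloured by class. Each point is 1 gene and each bar the median of its class. In wild-type pair 2 all 51 points lie below 0, and in the other pairs they fall on both sides.

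Among the antiviral effectors, Oasl2, an oligoadenylate synthetase-like protein, had 29.0, 31.5 and 22.7 CPM in Fancd2-/- oxymetholone libraries and 36.9, 43.4 and 37.8 CPM in Fancd2-/- placebo libraries. It had 29.6, 27.2 and 32.8 CPM in wild-type oxymetholone libraries and 45.3, 59.3 and 34.9 CPM in wild-type placebo libraries. In both genotypes every oxymetholone library lay below every placebo library, and the log2 change was -0.53 ± 0.17 in Fancd2-/- cells (edgeR, SE, adjusted p = 0.688) and -0.59 ± 0.12 for the mean of both genotypes (edgeR, adjusted p = 0.457). Ifit3, which binds to other IFIT proteins on foreign RNA, had 1.44, 1.65 and 1.20 CPM in Fancd2-/- oxymetholone libraries and 2.45, 2.56 and 3.82 CPM in Fancd2-/- placebo libraries, again without overlap, at -1.07 ± 0.34 (edgeR, adjusted p = 0.688). The wild-type values overlapped, at 2.44, 1.32 and 1.37 CPM on oxymetholone and 2.92, 2.86 and 1.53 CPM on placebo. All 22 type I effectors had a negative fitted change in Fancd2-/- cells (median -0.28) and 20 of 22 did in wild-type cells (median -0.17). Of all genes, 51.8% and 51.2% were below 0 in these comparisons. Without wild-type pair 2, the 33 type I genes, which include these effectors, had a wild-type median of 0.00348 with 16 below 0.

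Cxcl10, a chemokine that draws in CXCR3-bearing lymphocytes, had 3.31, 0.967 and 0.957 CPM in wild-type oxymetholone libraries and 8.13, 4.67 and 2.34 CPM in wild-type placebo libraries. The ranges overlapped, but each oxymetholone library was below its paired placebo library, and the fitted change was -1.69 ± 0.31 (edgeR, adjusted p = 0.548), the smallest p among the members in wild-type cells. In Fancd2-/- cells it had 1.65, 2.80 and 1.495 CPM on oxymetholone and 3.93, 3.16 and 2.65 CPM on placebo. For the mean of both genotypes the change was -1.21 ± 0.22 (edgeR, adjusted p = 0.331; DESeq2, adjusted p = 0.00221; edgeR with no low-count filter, adjusted p = 0.0149). These levels are low, and the Cxcl10 row overlaps Art3 on the opposite strand.

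Among the GTPases in wild-type cells, all 11 fitted changes were below 0 with a median of -0.45, and 8 of them had an unadjusted p under 0.05, against a median of -0.18 and 2 of 33 for the type I genes. Without wild-type pair 2 the GTPase median was -0.25, with 9 of 11 below 0 and 2 at an unadjusted p under 0.05, and the type I median was 0.00348. The difference between the classes was not tested. The IRG gene Igtp, a regulator of the other IRG proteins, had 127, 99.1 and 113 CPM in wild-type oxymetholone libraries and 191, 204 and 118 CPM in wild-type placebo libraries, at -0.59 ± 0.16 (edgeR, adjusted p = 0.999). Placebo library 3 lay close to the oxymetholone libraries. Gbp4, a guanylate binding protein, had 5.16, 4.49 and 5.40 CPM on oxymetholone and 11.96, 13.9 and 7.47 CPM on placebo in wild-type cells, with no overlap, at -1.17 ± 0.26 (edgeR, adjusted p = 0.999). In Fancd2-/- cells Gbp4 had 5.15, 8.07 and 2.39 CPM on oxymetholone and 7.11, 6.12 and 3.82 CPM on placebo, with overlap. Members of the GBP family resemble each other in sequence and the handling of reads that match several copies is not given in the sources used here, so their separate values are uncertain.

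Slfn2, a Schlafen protein that restrains proliferation of lymphocytes and myeloid cells, had 17.5, 12.5 and 14.2 CPM in wild-type oxymetholone libraries and 32.7, 22.3 and 21.2 CPM in wild-type placebo libraries. The groups did not overlap, and the change was -0.80 ± 0.17 (edgeR, adjusted p = 0.999). In Fancd2-/- cells the ranges overlapped, with 18.1, 31.5 and 20.4 CPM on oxymetholone and 25.0, 28.0 and 33.1 CPM on placebo. The 3 members with a positive change and the smallest p in Fancd2-/- cells were Slfn8 (0.41 ± 0.18), Gbp6 (0.30 ± 0.15) and Gbp10 (1.23 ± 0.68), each with an edgeR adjusted p of 0.688. In wild-type cells they were Ifit2 (0.17 ± 0.16), Ifi27l2a (0.17 ± 0.22) and Ifi203 (0.04 ± 0.13), each with an edgeR adjusted p of 0.999.

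Ifi202b, a HIN-200 protein of the family that binds DNA, rested on 1 library. It had 0.275, 0.494 and 0.378 CPM in Fancd2-/- oxymetholone libraries and 0.455, 0.789 and 5.91 CPM in Fancd2-/- placebo libraries, while the wild-type libraries held 0.309 to 1.09 CPM. The change of -2.23 ± 0.70 (edgeR, adjusted p = 0.688) had the smallest p among the members in Fancd2-/- cells, and its pair ratios were -0.30, -0.37 and -2.87 on the log2 scale. Placebo library 3, the source of the high value, is the library with the strongest length-related deviation. Fancd2-/- whole marrow held 11.1 CPM of Ifi202b and wild-type whole marrow 12.7 CPM. The part of other marrow cells in this value was not tested.

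The sort antigen gene Ly6a (Sca-1) is followed because it is interferon inducible and because it defined the gate. It had 179, 190 and 123 CPM in Fancd2-/- oxymetholone libraries and 244, 228 and 309 CPM in Fancd2-/- placebo libraries, with no overlap, at -0.69 ± 0.24 (edgeR, adjusted p = 0.688). In wild-type cells it had 187, 122 and 186 CPM on oxymetholone and 220, 260 and 165 CPM on placebo, with overlap, at -0.40 ± 0.24 (edgeR, adjusted p = 0.999). Because the cells were gated on this antigen, a shift in the gate and a shift in expression cannot be told apart.

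The libraries of wild-type pair 2 lay furthest apart. Relative to the mean of the 12 KSL libraries, the median deviation of the members on the log2(CPM + 0.5) scale was -0.20 in wild-type oxymetholone library 2 and 0.37 in its partner, wild-type placebo library 2, while the other wild-type libraries lay between -0.11 and 0.12. Of the 51 members, 23 had their highest KSL level in wild-type placebo library 2, against 6.8% of all genes. In Fancd2-/- cells the lowest median was -0.33 in oxymetholone library 3, in which 18 members had their lowest level, against 10.5% of all genes. These 3 libraries, Fancd2-/- oxymetholone 3 and both of wild-type pair 2, were also the deepest KSL libraries, with 112579151, 115485440 and 121347124 counts, and every other KSL library held at most 35549395. The part of depth in their deviations was not tested. The partner of Fancd2-/- oxymetholone library 3, placebo library 3, had a type I median of 0.07 but a GTPase median of -0.28, and there the median deviation from the other libraries of its group was 0.07 for the shorter members and -0.60 for the longer. The part of that length relation in the split between the classes was not tested.

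**Figure D2:**
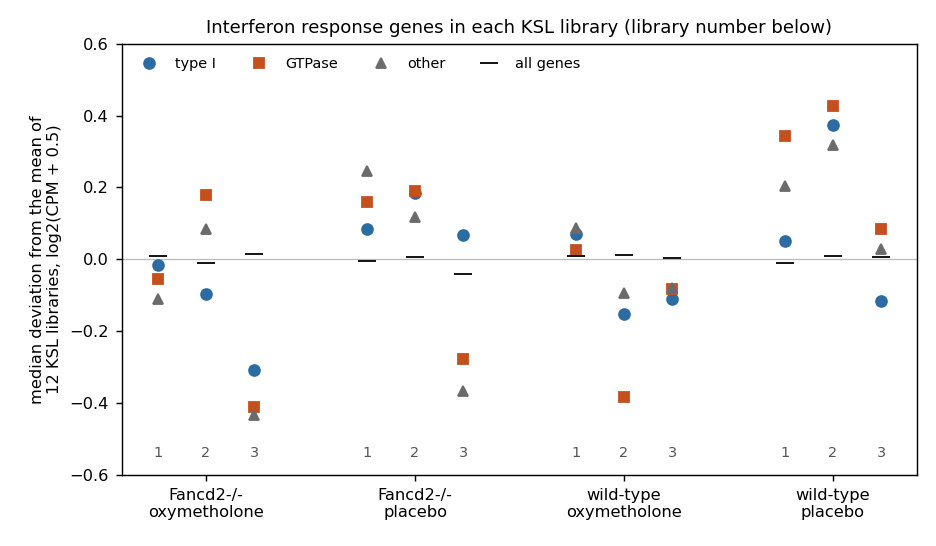
Median deviation of the type I, GTPase and other members from the mean of the 12 KSL libraries on the log2(CPM + 0.5) scale (vertical axis), for each library of the 4 groups, with the median of all genes as a dash. Wild-type placebo library 2 is highest, with 0.37 for type I genes and 0.43 for GTPases, and Fancd2-/- oxymetholone library 3 is among the lowest, with -0.31 and -0.41.

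The members whose levels varied most between libraries of one group, after Ifi202b (pooled SD of 0.77 on the log2 scale), were Iigp1 (0.63), Cxcl10 (0.61) and Gbp4 (0.51). The highest KSL library exceeded the lowest by 5.13-fold for Iigp1 and by 8.50-fold for Cxcl10. Iigp1, an effector IRG that loosens the membranes around intracellular parasites, had 39.5, 27.4 and 39.0 CPM in wild-type oxymetholone libraries and 68.4, 101 and 45.6 CPM in wild-type placebo libraries. DESeq2 called it in wild-type cells, and edgeR gave -1.002 ± 0.26 with an adjusted p of 0.999.

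The interaction asked whether oxymetholone acted differently in Fancd2-/- and wild-type KSL cells. No member passed (0 of 52 by edgeR, 0% of all 13259 genes; 5 at an unadjusted p under 0.05, against 3.45% of genes; 0 by DESeq2 and by voom). The median difference, Fancd2-/- minus wild-type, was 0.29 for the GTPases, with 9 of 11 above 0, and -0.05 for the type I genes, with 15 of 33 above 0. Without wild-type pair 2 these medians were 0.09 and -0.26. The smallest p values belonged to Gbp10 (3.84 ± 0.93), Gbp4 (0.92 ± 0.37) and Iigp1 (0.86 ± 0.36) upward and to Ifi27l2a (-0.54 ± 0.31) downward, each with an edgeR adjusted p of 0.953. Gbp10 lay between 0.0327 and 1.124 CPM in all KSL libraries. The median over all members was 0.07 and became -0.14 without wild-type pair 2.

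The next comparison was Fancd2-/- against wild-type KSL cells on the same diet. No member passed the test. On placebo 0 of 52 passed in edgeR, where 1.28% of all genes did, and 6 had an unadjusted p under 0.05, against 19.6% of all genes. On oxymetholone 0 passed, against 0.128% of all genes, and 1 had an unadjusted p under 0.05, against 5.57% of all genes. Over the mean of both diets 0 passed, against 3.71% of all genes, and 4 had an unadjusted p under 0.05, against 21.0% of all genes. The fit over both diets counted the partners of a pair as separate libraries, so its p-values may be too small. DESeq2 called 1, 0 and 0 members in these comparisons, against 6.15%, 0.649% and 8.45% of all genes, and voom called 3, 0 and 3, against 10.6%, 0.332% and 17.8%.

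On placebo the type I genes had a median log2 change of 0.02 and the GTPases of -0.34. Of the GTPases 9 of 11 were below 0, against 51.6% of all genes. Fancd2-/- placebo library 3, with the strongest length-related deviation, had median deviations of 0.07 for type I genes and -0.28 for GTPases. Wild-type placebo library 2 had 0.37 for type I genes and 0.43 for GTPases. The part of these libraries in the split between the classes was not tested. Slfn8 had 13.9, 12.3 and 8.20 CPM in Fancd2-/- placebo libraries and 16.9, 19.9 and 15.3 CPM in wild-type placebo libraries. The groups did not overlap, at -0.62 ± 0.19 (edgeR, adjusted p = 0.121; DESeq2, adjusted p = 0.0481; voom, adjusted p = 0.0203). Gbp4, with the placebo values given above, had a fitted change of -1.0 ± 0.37 (edgeR, adjusted p = 0.169), and its groups did not overlap. Upward, Ifi27l2a, a mitochondrial interferon-inducible protein, had 11.4, 17.9 and 13.3 CPM in Fancd2-/- placebo libraries and 11.2, 11.4 and 4.68 CPM in wild-type placebo libraries, at 0.60 ± 0.27 (edgeR, adjusted p = 0.241).

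On oxymetholone Slfn2 had the smallest p, at 0.67 ± 0.23 (edgeR, adjusted p = 0.600), from the libraries given above, which did not overlap. Over both diets the smallest p values were those of Slfn8 (-0.36 ± 0.14, edgeR, adjusted p = 0.158), Slfn2 (0.41 ± 0.16, adjusted p = 0.165) and Irf1 (-0.20 ± 0.08, adjusted p = 0.170). Irf1, the transcription factor of the interferon gamma arm, had 256, 236 and 253 CPM in Fancd2-/- oxymetholone libraries, 253, 291 and 257 CPM in Fancd2-/- placebo libraries, 283, 276 and 271 CPM in wild-type oxymetholone libraries and 342, 314 and 280 CPM in wild-type placebo libraries. Its genotypes overlapped on placebo and did not overlap on oxymetholone. Ly6a was at 0.27 ± 0.21 for genotype on placebo (edgeR, adjusted p = 0.506) and at -0.01 ± 0.21 on oxymetholone (edgeR, adjusted p = 0.999).

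Among pathway genes that are not members, none passed the test for oxymetholone in KSL cells, where 0% of all genes did. The absence of calls therefore cannot tell the lists apart. The other interferon-inducible genes, Ly6a among them, had 5 of 9 fitted changes below 0 in Fancd2-/- cells and 8 of 9 in wild-type cells. Their medians were -0.09 and -0.10. Medians of the remaining tested lists lay between -0.06 and 0.03. Of the 9 tested receptor and JAK-STAT genes, 12 tested genes that induce interferon, 12 that restrain its signalling and 9 other interferon-inducible genes, 0 passed in edgeR in either genotype. Over both diets, 2 of these pathway genes passed for genotype, where 3.71% of all genes did. In that fit the partners of a pair counted as separate libraries, so its p-values may be too small. Irf5, a transcription factor that drives inflammatory cytokines, was lower in Fancd2-/- cells (-0.44 ± 0.10, edgeR, adjusted p = 0.0351), and Irf2, a repressor that competes with Irf1, was lower as well (-0.38 ± 0.09, edgeR, adjusted p = 0.0287). Of the 18 interferon ligand genes in the matrix, 0 were high enough to be tested in KSL cells or erythroblasts, and the highest of them in any library was Ifng in whole marrow, at 0.393 CPM for Fancd2-/- and 0.369 CPM for wild-type mice.

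In erythroblasts the question was the effect of oxymetholone in wild-type mice. Of the 52 members 36 passed the filter on low counts, 0 passed the test in edgeR (0% of all 9694 genes did), 0 had an unadjusted p under 0.05 (1.27% of all genes did), and DESeq2 and voom called 0. The median log2 change was -0.14 with 28 of 36 below 0. It turned to 0.25 without erythroblast placebo library 1. The 3 smallest p values downward were those of Ifi47 (-0.31 ± 0.18), Ddx58 (-0.41 ± 0.29) and Oas2 (-0.57 ± 0.50) and upward those of Slfn8 (0.26 ± 0.20), Cxcl10 (0.38 ± 0.37) and Ifit2 (0.09 ± 0.10), each with an edgeR adjusted p of 0.999.

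Erythroblast placebo library 1, from 1 mouse, held the highest level of 30 of the 32 members with an erythroblast mean of at least 1 CPM, against 20.4% of all genes. Its median deviation from the mean of the 6 libraries was 0.62 on the log2 scale, while placebo libraries 2 and 3 lay at -0.32 and -0.24 and the oxymetholone libraries between -0.07 and 0.01. Isg15, a ubiquitin-like protein joined to other proteins after interferon, had 59.9, 56.5 and 51.2 CPM on oxymetholone and 124, 45.3 and 45.7 CPM on placebo. Igtp had 181, 154 and 261 CPM on oxymetholone and 443, 128 and 133 CPM on placebo. Irf1 had 1.10, 0.287 and 1.02 CPM on oxymetholone and 5.22, 0.633 and 0.504 CPM on placebo. For Isg15 and Igtp every oxymetholone library lay below placebo library 1 and above both other placebo libraries, and for Irf1 every other library lay far below placebo library 1.

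A pathway gene outside the list was also high in that library. The peptide transporter gene Tap1 had 13.6, 8.71 and 36.9 CPM on oxymetholone and 50.3, 6.38 and 7.91 CPM on placebo, so that oxymetholone library 3 was the second highest. The erythroid marker sum of placebo library 1 was 65740 CPM, within the range of the other erythroblast libraries, and its monocyte and macrophage sum was 36.2 CPM against 28.3 to 38.3 CPM in the others, also within range. The part of other cells in its high values was not tested beyond these sums.

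**Figure D3:**
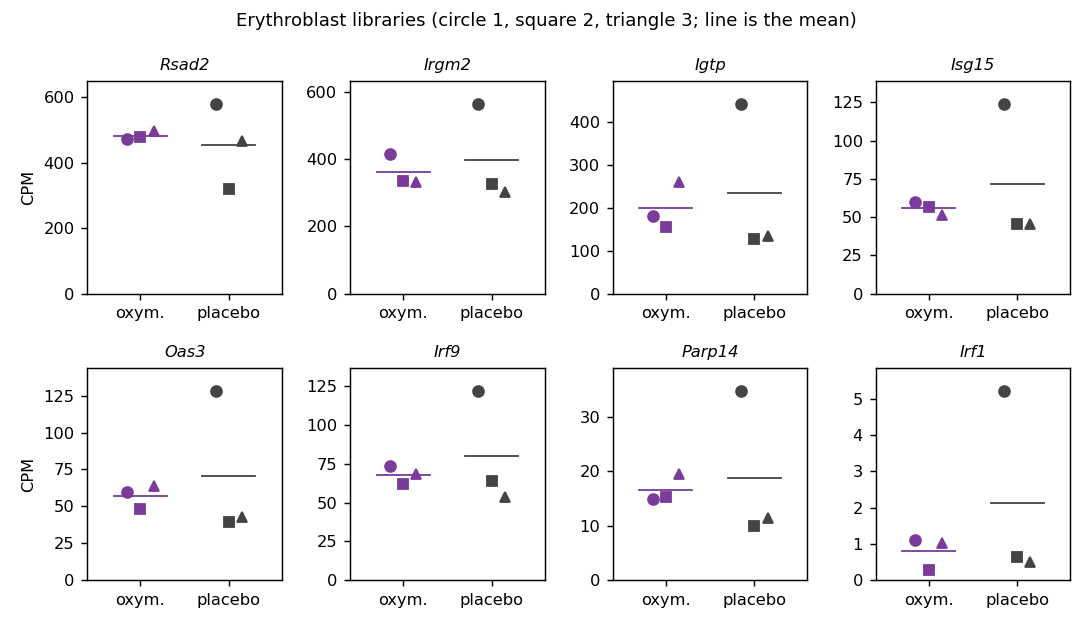
CPM (vertical axis, from 0) of 8 interferon response genes in the 3 oxymetholone and 3 placebo erythroblast libraries. Symbols mark the library number and lines the group mean. Placebo library 1 is the highest of the 6 for each gene, for example at 443 CPM for Igtp against 128 to 261 CPM in the other libraries.

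The largest differences lay between the sorted populations. In wild-type mice on placebo, 4 members were higher in erythroblasts than in KSL cells and 33 were lower, counting only calls that held under both TMM and total-count scaling in edgeR. The corresponding shares of all 12538 genes tested were 19% higher and 53.7% lower. Under TMM alone 42 of 52 members passed, 9 higher and 33 lower, while 91% of all genes passed. The median log2 difference of the members was -1.71, against -0.67 over all genes. Total-count scaling shifted the median of all genes by -1.41 on the log2 scale, to -2.08, and gave a median of -3.11 over the members. The differences below are TMM values unless total counts are named. The CPM values below are scaled inside each population, so their ratios lie nearer to the total-count differences than to the TMM differences.

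Rsad2 (viperin), an enzyme that makes an antiviral nucleotide, had 579, 319 and 466 CPM in erythroblasts and 6.95, 9.50 and 10.98 CPM in KSL cells. The populations were far apart, at a log2 difference of 7.05 ± 0.29 under TMM (edgeR, adjusted p = 1.49e-08) and 5.63 under total counts. Cmpk2, a nucleotide kinase gene lying 12.8 kb from Rsad2 on chromosome 12 on the opposite strand, had 114, 84.2 and 97.9 CPM in erythroblasts and 18.4, 20.2 and 22.4 CPM in KSL cells, at 3.68 ± 0.13 under TMM (edgeR, adjusted p = 6.86e-13) and 2.26 under total counts. Both neighbours were thus higher in every erythroblast library. The promoter window of Rsad2 held a response element core and that of Cmpk2 held none.

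Isg15 had 124, 45.3 and 45.7 CPM in erythroblasts and 8.66, 13.5 and 7.38 CPM in KSL cells, at 4.18 ± 0.63 under TMM (edgeR, adjusted p = 0.00237) and 2.77 under total counts. Irgm2, a regulatory IRG GTPase, had 565, 325 and 303 CPM in erythroblasts and 62.8, 72.0 and 48.8 CPM in KSL cells, at 4.08 ± 0.33 under TMM (edgeR, adjusted p = 2.93e-05) and 2.66 under total counts. For both genes every erythroblast library exceeded every KSL library. The neighbour of Irgm2, Igtp, 7.38 kb away on chromosome 11, had 443, 128 and 133 CPM in erythroblasts and 191, 204 and 118 CPM in KSL cells. The Igtp values overlapped, at 1.83 under TMM (edgeR, adjusted p = 0.0538) and 0.41 under total counts (edgeR, adjusted p = 0.553).

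Calls of 11 type I genes depended on the scaling. Of these, Stat2, Irf9, Parp9, Parp12, Parp14 and Oasl1 were not called under TMM and were lower under total counts, at -1.22 to -2.16. The other 5 were higher under TMM. Oas3, an oligoadenylate synthetase, was higher under TMM at 2.92 ± 0.67 (edgeR, adjusted p = 0.0117) and at 1.499 under total counts (edgeR, adjusted p = 0.073). Usp18, the protease that removes ISG15, was higher under TMM at 1.52 and stood at 0.11 under total counts (edgeR, adjusted p = 0.711). Ifit2, the kinase gene Eif2ak2 and the RNA sensor gene Ifih1 (MDA5) were higher under TMM, at 0.86, 0.78 and 0.54, and lower under total counts, at -0.56, -0.63 and -0.89, so they have no direction that holds in both.

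The members lower in erythroblasts included the RNA sensor gene Ddx58 (RIG-I), which had 1.96, 1.27 and 1.16 CPM in erythroblasts and 93.2, 99.5 and 105 CPM in KSL cells, at -4.71 ± 0.18 under TMM (edgeR, adjusted p = 8.82e-13) and -6.13 under total counts. Of the 7 sensors, 5 were lower under both scalings, Ifi203 lowest at -7.22 ± 0.24 under TMM (edgeR, adjusted p = 1.98e-13) and -8.63 under total counts, with 0.593, 0.146 and 0.454 CPM in erythroblasts and 136, 166 and 152 CPM in KSL cells. Ifi203 and its neighbour Ifi204 belong to a gene family with close copies. Gbp2 had 1.19, 0.341 and 0.302 CPM in erythroblasts and 133, 125 and 129 CPM in KSL cells, at -6.40 ± 0.27 under TMM (edgeR, adjusted p = 1.68e-11) and -7.82 under total counts. For Ddx58, Ifi203 and Gbp2 no erythroblast library came near any KSL library. Ly6a, the sort antigen gene of the KSL cells, was at most 0.202 CPM in erythroblasts.

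Close relatives differed in level. Oas2 lies 3.25 kb from Oas3 on chromosome 5 and had 1.66, 0.438 and 0.504 CPM in erythroblasts and 9.59, 25.5 and 9.54 CPM in KSL cells, at -2.82 under TMM (edgeR, adjusted p = 0.0106) and -4.22 under total counts, whereas Oas3 had 128, 39.7 and 43.1 CPM in erythroblasts and 17.2, 33.1 and 21.4 CPM in KSL cells. Oas1a was lower, at -5.29 under TMM (edgeR, adjusted p = 2.98e-05) and -6.70 under total counts. Irf1 had 5.22, 0.633 and 0.504 CPM in erythroblasts and 342, 314 and 280 CPM in KSL cells, at -5.90 under TMM (edgeR, adjusted p = 0.00202) and -7.32 under total counts. In contrast Irf7, the factor that amplifies type I interferon, had 62.9, 31.2 and 33.6 CPM in erythroblasts and 49.7, 72.0 and 32.8 CPM in KSL cells, with overlap, at 1.08 under TMM (edgeR, adjusted p = 0.072) and -0.33 under total counts (edgeR, adjusted p = 0.485).

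Of the 11 GTPases, 8 were lower and 1 higher under both scalings, and of the 8 others 7 were lower. Gbp10 had 0 counts in all erythroblast libraries and is given without a fold. A response element core lay in the promoter of 7 of the 9 members called higher under TMM and of 22 of the 33 called lower. Beside these values, the receptor genes differed too. Ifngr1, a chain of the interferon gamma receptor, had 3.91, 4.09 and 3.48 CPM in erythroblasts and 191, 166 and 199 CPM in KSL cells, and Ifngr2 had 1.78, 0.731 and 1.16 CPM in erythroblasts and 65.9, 57.9 and 64.0 CPM in KSL cells. The type I receptor gene Ifnar1 had 82.3, 72.3 and 79.9 CPM in erythroblasts and 179, 175 and 181 CPM in KSL cells. Total-count scaling shifted the median of all genes by -1.41 on the log2 scale, more than this gap. The lower level of Ifnar1 was therefore not shown to hold under both scalings. Of the 9 tested receptor and JAK-STAT genes, edgeR under TMM called 3 higher and 4 lower in erythroblasts, while 91% of all genes passed.

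**Figure D4:**
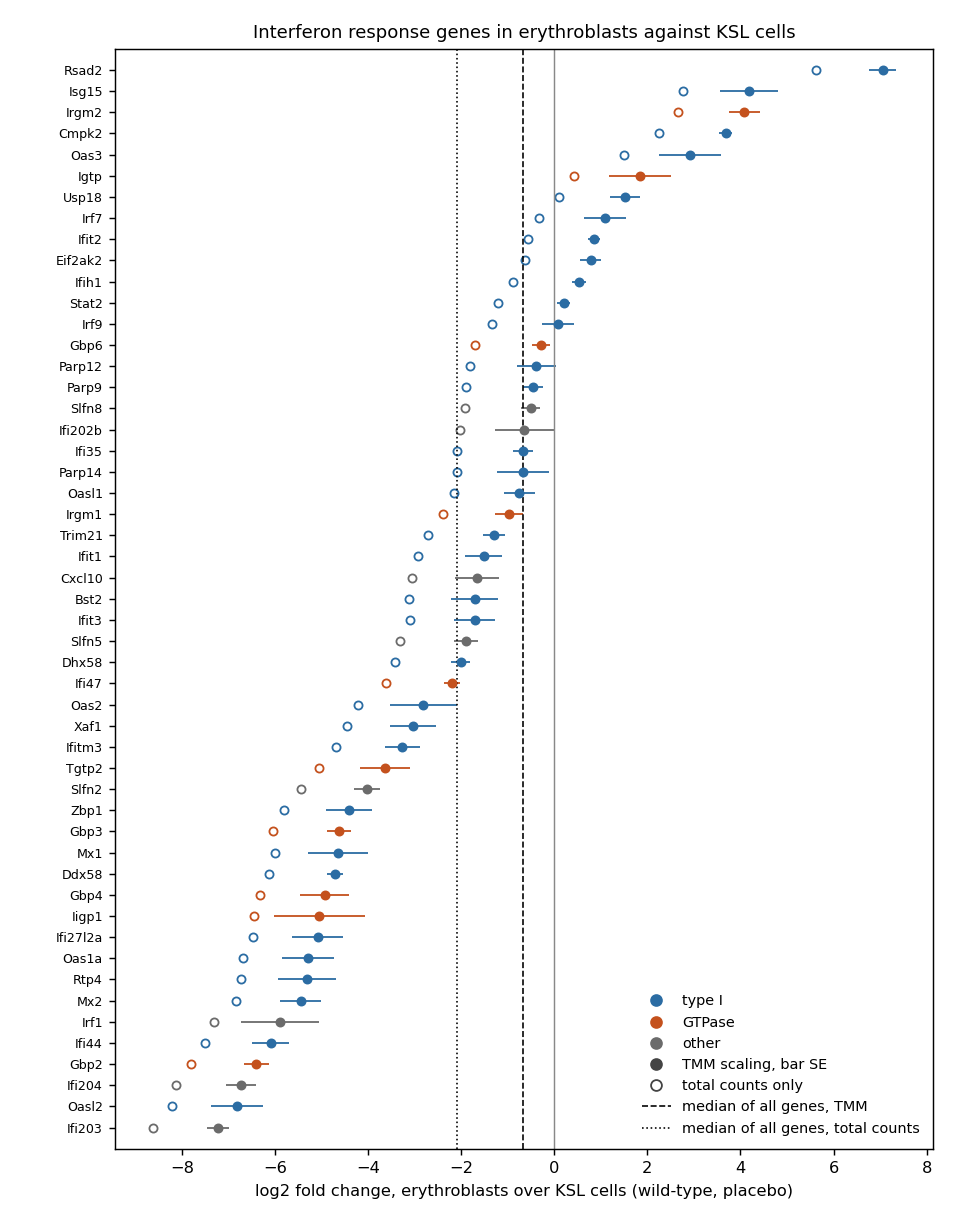
Log2 fold change of erythroblasts over KSL cells in wild-type mice on placebo (horizontal axis) for 51 interferon response genes ordered by size, coloured by class. Filled points are TMM-scaled edgeR values with their SE, open points are values under total counts, and the dashed and dotted lines are the medians of all genes at -0.67 and -2.08. Rsad2, Isg15, Irgm2 and Cmpk2 lie furthest right, and Ifi203, Oasl2 and Ifi204 furthest left.

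The oxymetholone effect was also compared between erythroblasts and KSL cells of wild-type mice. By edgeR 0 of 52 members passed, against 0.0155% of all genes, 2 had an unadjusted p under 0.05 (2.45% of all genes did), and DESeq2 and voom called 0. The median difference was 0.01 and became 0.51 without erythroblast placebo library 1. The smallest p values were those of Mx2 (-5.63 ± 2.16), whose erythroblast levels were at most 0.178 CPM, and Cxcl10 (1.99 ± 0.81), both with an edgeR adjusted p of 1.

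In whole marrow Fancd2-/- was compared with wild-type in 1 library each, so there is no test and the intervals below cover counting error only. Of the 51 members with at least 100 counts in a library, 16 had a Fancd2-/- to wild-type ratio of CPM past 1.5-fold lower and 0 past 1.5-fold higher. Among all 11819 such genes 0.609% were past 1.5-fold lower and 0.804% past 1.5-fold higher, so that these 16 members were among 72 lower genes in all. The median ratio was 0.797 for the members and 1.0 for all genes, and 48 of 51 members lay below 1, against 49.4% of all genes. By class the median ratio was 0.645 for the GTPases, 0.768 for the type I genes and 0.924 for the others, with 6 of 10, 10 of 33 and 0 of 8 past 1.5-fold lower.

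The lowest ratio was that of Tgtp2, an effector IRG, with 82 counts in Fancd2-/- and 229 counts in wild-type marrow, a ratio of 0.337 (95% exact interval 0.258 to 0.435). Tgtp2 is nearly identical to its neighbour Tgtp1, so their reads may have been shared. Iigp1 followed at 1.26 CPM in Fancd2-/- and 2.78 CPM in wild-type marrow, a ratio of 0.451 (0.365 to 0.556). Both are IRG effectors.

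Isg15 had 23.5 CPM in Fancd2-/- and 49.4 CPM in wild-type marrow, a ratio of 0.475 (0.452 to 0.498). Ifit3 had 2.96 CPM in Fancd2-/- and 6.15 CPM in wild-type marrow, a ratio of 0.481 (0.419 to 0.552), and Oas1a had 5.98 CPM in Fancd2-/- and 11.9 CPM in wild-type marrow, a ratio of 0.503 (0.457 to 0.555). Igtp stood at 87.9 CPM in Fancd2-/- and 172 CPM in wild-type marrow, a ratio of 0.512 (0.4998 to 0.526). These genes span low and high levels.

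Not all members were lower, or lower to the same extent. Rsad2, the highest of the erythroblast-rich members, had 464 CPM in Fancd2-/- and 529 CPM in wild-type marrow, a ratio of 0.877 (0.866 to 0.888). Slfn2 had 293 CPM in Fancd2-/- and 272 CPM in wild-type marrow, a ratio of 1.08 (1.06 to 1.09), and Slfn5 had a ratio of 1.116 (1.02 to 1.22). Slfn2 and Slfn5 were the only members with an interval above 1, while Mx1 had a ratio of 1.046 (0.946 to 1.156). An interval below 1 was found for 42 of the 51 members, against 2775 of all 11819 genes. An interval above 1 was found for 2821 of all genes. These intervals cover counting error only and not the spread between mice.

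The marker sums of both marrow libraries stand beside these ratios. The monocyte and macrophage sum was 8978 CPM in Fancd2-/- and 8257 CPM in wild-type marrow, and the neutrophil sum was 109000 CPM in Fancd2-/- and 102000 CPM in wild-type marrow. The T and NK cell sum was 190 CPM in Fancd2-/- and 170 CPM in wild-type marrow, and the plasmacytoid dendritic cell sum was 333 CPM in Fancd2-/- and 327 CPM in wild-type marrow. The B cell sum was 859 CPM in Fancd2-/- and 855 CPM in wild-type marrow, and the megakaryocyte sum was 126 CPM in Fancd2-/- and 120.5 CPM in wild-type marrow. Lower in Fancd2-/- marrow were the erythroid sum, at 26910 CPM against 27970 CPM in wild-type marrow, and the stem and progenitor sum, at 149 CPM against 162 CPM in wild-type marrow. Their part in the lower ratios was not tested. Fewer cells of a type and less RNA per cell cannot be told apart in such bulk samples. In KSL cells on placebo the genes lowest in Fancd2-/- marrow were not called by edgeR, with fitted log2 changes of -0.37 for Tgtp2, -0.77 for Iigp1, -0.00448 for Isg15, 0.23 for Ifit3, 0.18 for Oas1a and -0.33 for Igtp.

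**Figure D5:**
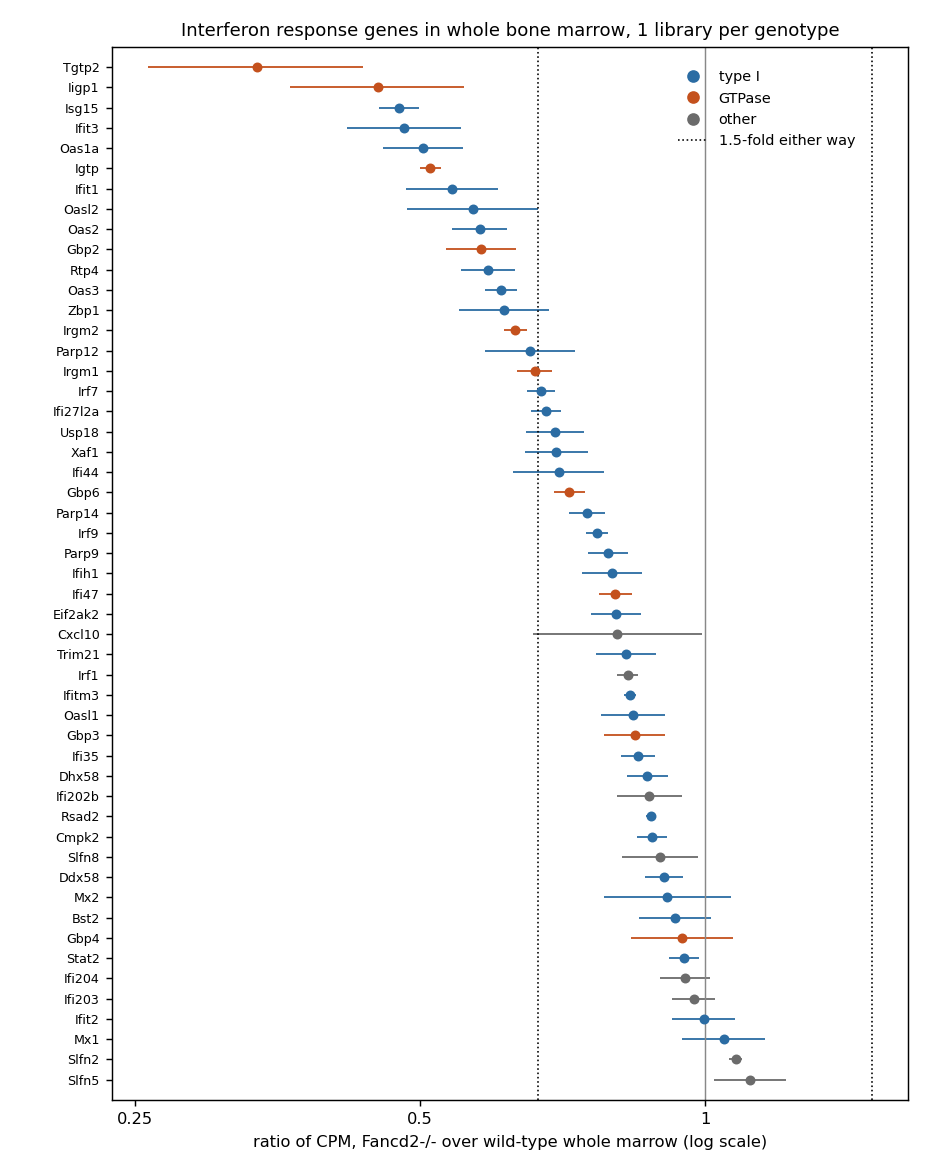
Ratio of CPM in Fancd2-/- over wild-type whole marrow (horizontal axis, log scale) for 51 interferon response genes, coloured by class, with 95% intervals for counting error and dotted lines at 1.5-fold either way. Of the 51 points, 48 lie below 1 and 16 lie left of the lower dotted line, from Tgtp2 at 0.337.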

How the data were processed

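RNA-seq gene counts of 20 libraries were analysed, deposited by the authors as raw counts per RefSeq row. A second deposited table holds scores, the same counts scaled to a common total and rounded, and was used only to check the first. Per the submitters' processing notes and the series' design text, 51-base TruSeq reads were mapped to mm9 with Bowtie and analysed with edgeR. Versions and strand were not given in the sources used here, nor was the treatment of reads that match several genes. The largest row per symbol was kept, which covers 11 members with several rows. Row starts were raised by 1 base to 1-based positions. The column paired with the Fancd2-/- oxymetholone library 1 has a name that differs in a character from the sample title closest to it, and was assigned to its group only.

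Counts were filtered (filterByExpr), TMM-scaled and tested with edgeR 4.0.16 (R 4.3.3) quasi-likelihood tests, robust, with Benjamini-Hochberg adjustment over all genes tested. All 12 KSL libraries shared a fit. Oxymetholone effects had the pair as a block, since the design text pairs the libraries by flow cytometer setting. Deviations of partners from their group means correlated at 0.26, -0.04 and 0.35 in Fancd2-/- pairs 1 to 3 and at 0.20, 0.49 and 0.35 in wild-type pairs 1 to 3. Genotype, erythroblast and population effects used group means. Genotype is constant within a pair, and its fit over both diets had no pair term, so those p-values may be too small. Only the fit with the pair block, for oxymetholone in Fancd2-/- KSL cells, was tried on simulated counts, which held no pair effect. The other fits were not tried in this way. Replicates are pools or single mice as labelled, and p-values measure the spread between them. CPM levels used TMM factors of each population, and library deviations log2(CPM + 0.5). The whole marrow threshold was 1.5-fold with at least 100 counts in a library, with 95% exact binomial intervals, which cover counting error only.

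Members named with statistics were those with an adjusted p under 0.05 in a comparison, at most 12 per direction, or otherwise the 3 of smallest p per direction, the 5 furthest past 1.5-fold in whole marrow, Fancd2 and Ly6a. Others are named for contrast and were chosen after their values were seen. The members and lists were chosen with earlier results of these data known. Alternatives were median-of-ratios scaling, no filter, rows of a symbol summed, DESeq2 1.42.0, limma 3.58.1 voom, no pair block, each library or pair left out, and total counts only, which was added after the data were seen. One gene of the pathway lists is not reported here.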

Additional observations from a re-analysis of the deposited data

How the results depend on the processing

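By a rule that allowed a change within 1.5-fold or within the spread of library medians, 132 of 140 counts and 130 of 136 medians were unchanged. That spread was 0.269 for oxymetholone in wild-type KSL cells and 0.169 for genotype, which exceeds the size of the member medians there. A median could thus change in size or sign and still count as unchanged. Leaving out pairs gave member medians from -0.31 to -0.07 for oxymetholone in wild-type cells. Leaving out libraries gave -0.18 to 0.02 for genotype on placebo and -0.11 to 0.06 for genotype on oxymetholone. Members called for oxymetholone over both genotypes numbered 1 with no low-count filter, 3 with DESeq2 and 0 to 1 when each pair was left out (1 without Fancd2-/- pair 2, Slfn2). For oxymetholone in wild-type KSL cells DESeq2 called 2 and voom 7, for genotype on placebo DESeq2 called 1 and voom 3, and for genotype over both diets voom called 3. When each pair was left out, the member median ranged from -0.20 to -0.14 for oxymetholone in Fancd2-/- cells and from -0.14 to 0.12 for the interaction. When each library was left out it ranged from -0.37 to 0.25 for oxymetholone in erythroblasts, from -2.19 to -1.39 for erythroblasts against KSL cells and from -0.16 to 0.51 for the difference between their oxymetholone effects. Total counts gave -3.11 for erythroblasts against KSL cells, with -0.56 for Ifit2, -0.89 for Ifih1 and -0.63 for Eif2ak2, all reversed. The response element core lay in 21 members within the 150 bases before the start, against 1.57% of 20300 promoters. That window is shorter and leaves out matches after the start. Under voom the log2 change reversed for Ifi203 with oxymetholone in wild-type cells and over both genotypes (-0.03 each), for Gbp6 over both genotypes (-0.02) and for Ifi202b by genotype on placebo (-0.30). When libraries or pairs were left out, Gbp6 over both genotypes ranged from -0.01 to 0.19, Ifi203 from -0.10 to 0.14 in wild-type cells and from -0.03 to 0.11 over both genotypes, Ifi27l2a in wild-type cells from -0.07 to 0.37, Ifi202b by genotype on placebo from -0.53 to 1.87 and Oas2 with oxymetholone in erythroblasts from -0.91 to 0.25. Without the replicate block, 0 members were called for oxymetholone in any KSL comparison, as with it, with a member median of -0.19 in Fancd2-/- and -0.21 in wild-type cells. The depth of the shallowest KSL library, 10777291 counts, limits what can be seen of members under 1 CPM such as Gbp10, and the cause of the differences between tools was not tested.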
